A study of Mus musculus with 12 samples.

Results

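*Myc* and 37 genes of ribosome biogenesis were followed across all libraries of the study. They were the rows of the deposited count table whose gene symbol stood on a list of 38 names, 38 of 55421 genes. The rule itself used no measured value, but the list was drawn up with earlier results of these data known. The list holds *Myc* itself, 6 nucleolar factors, 3 proteins of the box C/D and 4 of the box H/ACA small nucleolar ribonucleoproteins (snoRNPs), 2 subunits of RNA polymerase I, 10 assembly factors of the small ribosomal subunit and 12 of the large subunit. Ribosomal proteins are not on it.

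The study asked how Rroid2, the locus named in its title, bears on effector and memory CD8 T cells during infection. OT-I cells, CD8 T cells with a transgenic receptor for an ovalbumin peptide, were adoptively transferred into hosts infected with ovalbumin-carrying *Listeria monocytogenes* (LM-OVA) and later sorted from the spleen. There were 6 groups of 2 libraries: Rroid2 WT and Rroid2 KO cells sorted as SLEC (short-lived effector cells) on day 7 after infection, as SLEC on day 14, and as MPEC (memory precursor effector cells) on day 14. All groups, WT included, carried the OT-I receptor and came from LM-OVA infected hosts. The sort gates, the deleted interval, and the strain, sex and number of the mice are not stated in the labels or design used here. Nothing in the labels says that the replicates of a group were separate animals, so p-values here measure only the spread between these libraries, which may be technical.

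As background, MYC is a transcription factor that pairs with MAX and binds the E-box, and T cells induce it strongly after antigen contact, when they grow before dividing. RNA polymerase I transcribes the ribosomal RNA precursor in the nucleolus, box C/D and box H/ACA snoRNPs methylate and pseudouridylate it, and assembly factors fold, cut and package it into the small and the large subunit. Many genes of this pathway are known MYC targets.

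The stretches around the E-box letters are shown first, since *Myc* and most of the other members were higher in the same population, as described below. The motif searched was CACGTG, which reads the same on both strands, in windows of 300 bases (250 before to 50 after a transcription start) of RefSeq, build GRCm38.p6. Of the 38 members, 32 had a window, and 8 of these (25%) held the motif, against 8.09% of 27025 genes with a window and 11.6% of the 9529 of those that were tested for expression. The related letters CACGCG, searched on both strands and unable to overlap with the first motif, were in 10 of the 32 members (31.2%), 10.5% of all genes and 19.8% of tested genes. Shown are the 6 members with CACGTG whose RNA was called higher in MPEC; the remaining holders are *Nop2* and *Pes1*. Each stretch has 30 bases and runs 5′ to 3′ along the gene's strand, with the motif in capitals.
Utp20: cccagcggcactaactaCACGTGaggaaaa
Mybbp1a: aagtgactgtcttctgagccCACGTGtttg
Tsr1: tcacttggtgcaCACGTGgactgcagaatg
Wdr43: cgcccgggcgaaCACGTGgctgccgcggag
Grwd1: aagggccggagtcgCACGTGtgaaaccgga
Ltv1: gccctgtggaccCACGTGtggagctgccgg
They lie at chr10:88826765-88826794 (minus strand), chr11:72441347-72441376 (plus), chr11:74898092-74898121 (plus), chr17:71616220-71616249 (plus), chr7:45830740-45830769 (minus) and chr10:13193092-13193121 (minus), in that order. The first base of the motif was 38, 41, 25, 18, 35 and 29 bases from the start, inside the transcribed part in all 6. Of the 8 members with the motif, 6 were called higher in MPEC than in SLEC at day 14 (median log2 difference 0.70), and of the 24 without it 14 were (median 0.55). These counts describe letters in a window and not binding, and the difference between the shares was not tested.

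Total counts ran from 7603551 to 14026594 per library, so 3 counts correspond to 0.214 to 0.395 CPM (counts scaled to library size, with trimmed mean of M-values factors). All 38 members passed the low-count filter that left 14460 genes. *Cd8a* and the other CD8 T cell markers summed to 5614 to 6629 CPM in every library. The 16 B cell markers came to 630 (replicate 1) and 2194 CPM (replicate 2) in WT SLEC day 14, against 20.3 to 312 CPM in the other libraries, so those 2 libraries stand apart in these markers. Neutrophil markers were at 77.6 and 8.88 CPM in the same 2 libraries and at most 7.97 CPM elsewhere. Erythroid markers were at 73.7 CPM in KO SLEC day 7 replicate 1 and at most 22.1 CPM elsewhere. The WT SLEC day 7 replicates differed in the sum of 16 proliferation genes, at 1017 and 3388 CPM. No row bears the symbol Rroid2, so the knockout was not checked on a count.

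Per kilobase of coding sequence, which leaves out untranslated parts of the RNA, the members covered a wide range of levels. *Ncl* (nucleolin, an abundant nucleolar RNA-binding protein) was highest, at 607 CPM per coding kilobase averaged over the 12 libraries. *Ddx21* (a nucleolar RNA helicase) and *Npm1* (nucleophosmin, a nucleolar chaperone) followed at 126 and 115. *Myc* was at 27.9, between *Rrs1* at 24.2 and *Pes1* at 28.7, and *Polr1b* was lowest at 6.05. As a share of all counts, the 38 members took 0.230% to 0.318% in SLEC on day 7, 0.298% to 0.352% in SLEC on day 14 and 0.428% to 0.471% in MPEC. The MPEC range lay above both SLEC ranges, and the SLEC ranges overlapped. In sorted bulk RNA, fewer cells of a type and less RNA per cell cannot be told apart.

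**Figure D1:**
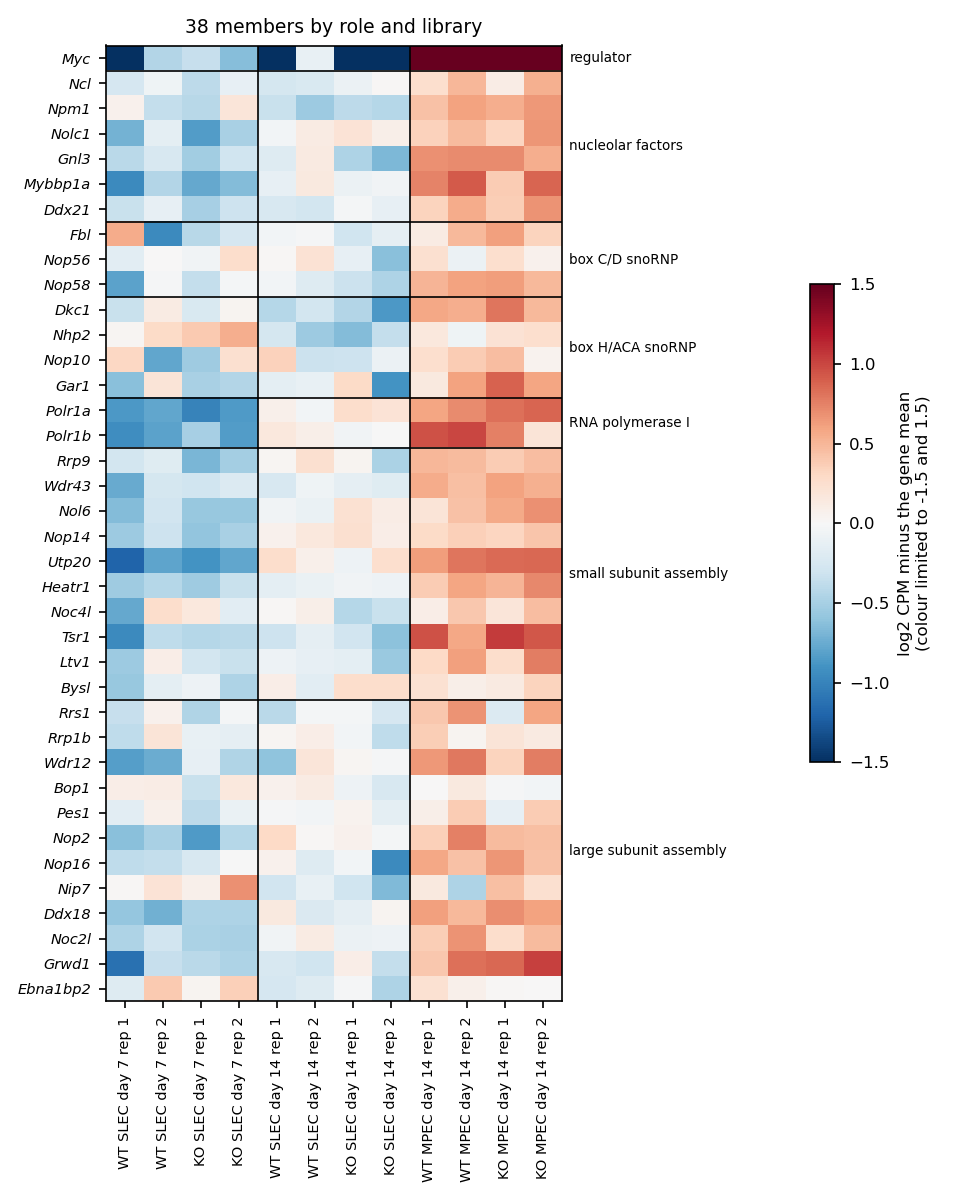
Level of each of the 38 members (rows, grouped by role) in each of the 12 libraries (columns), as log2 CPM minus the gene's mean over libraries, with colour limited to 1.5 either way. The 4 MPEC libraries on the right are redder than the SLEC libraries for *Myc* and most members, while *Bop1* and *Ebna1bp2* show little of this.

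At day 14, *Myc* was 10.8-fold higher in MPEC than in SLEC, and no member was called lower. *Myc* (ENSMUSG00000022346.15, GRCm38 chromosome 15, 61985391 to 61990374, plus strand, a protein-coding gene) was at 87.6 and 88.3 CPM in the WT MPEC libraries and 99.2 and 92.8 CPM in the KO MPEC libraries. It was at 6.70 and 19.0 CPM in WT SLEC day 14 and at 5.87 and 5.08 CPM in KO SLEC day 14. Every MPEC library was above every SLEC library, and within SLEC the WT replicate 2 stood above the other 3. The mean log2 difference over genotypes was 3.43 ± 0.29 (SE; edgeR quasi-likelihood test, adjusted p = 8.6e-06). It was 2.75 in WT (6.71-fold, adjusted p = 0.00084) and 4.12 in KO (17.3-fold, adjusted p = 0.00022), and the difference between these was not called (1.37 ± 0.62, adjusted p = 1.00). The WT difference was 2.18 without WT SLEC day 14 replicate 1 and 3.71 without replicate 2, and the difference between the genotypes was then 1.93 and 0.40. With 1 library left out the KO difference was 4.03 to 4.23. With only the groups compared in the fit, the WT difference was 2.74 with an adjusted p of 0.058, and the call was lost.

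**Figure D2:**
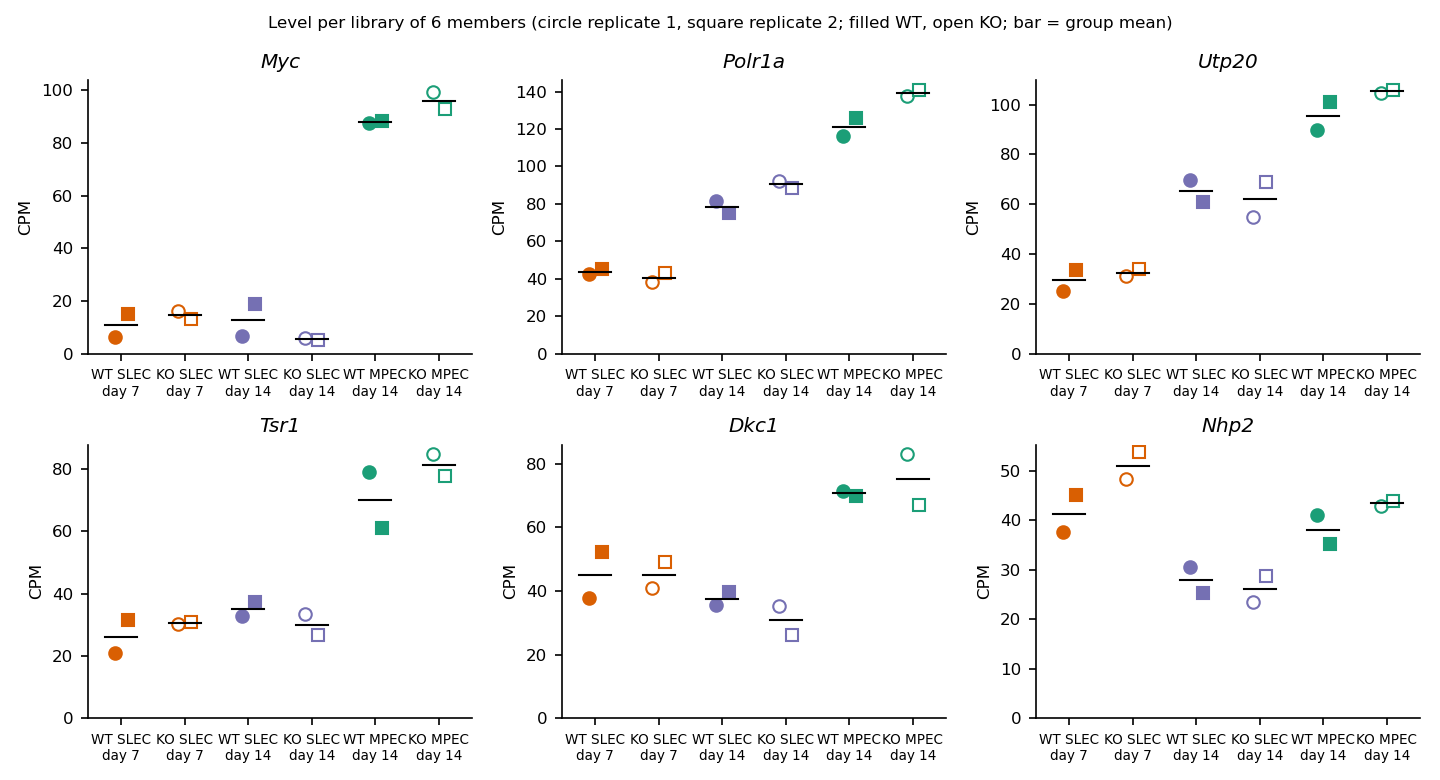
CPM of *Myc*, *Polr1a*, *Utp20*, *Tsr1*, *Dkc1* and *Nhp2* in each library (vertical axes from 0; circle replicate 1, square replicate 2; filled WT, open KO; bar, mean of the 2). *Myc* was low in all SLEC libraries and high in MPEC, *Polr1a* and *Utp20* climbed in steps from SLEC day 7 to MPEC, and *Nhp2* was lowest in SLEC on day 14.

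Over the whole list, 23 of 38 members were called higher in MPEC than in SLEC on day 14 and 0 lower, as the mean over genotypes, where 13.1% of all tested genes were called and 7.14% were called higher. The log2 difference was above 0 for all 38, from 0.05 to 3.43 with a median of 0.61, against a median of -0.01 over all genes. In 28 of 38 every MPEC library lay above every SLEC day 14 library, as for 10.4% of all genes. Because the list was drawn up with earlier results of these data known, these shares are a description and not a test of the list. In WT alone 13 members were called, all higher (7.96% of all genes called, 3.66% higher), and in KO alone 13, all higher (5.11% called, 2.9% higher). The 10 members called in each genotype were *Ddx21*, *Dkc1*, *Gnl3*, *Heatr1*, *Mybbp1a*, *Myc*, *Npm1*, *Polr1a*, *Tsr1* and *Wdr43*.

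Of the nucleolar factors, 5 of 6 were called higher in MPEC. *Npm1* was at 131, 145, 139 and 151 CPM in the 4 MPEC libraries and at 76.2, 65.6, 73.1 and 71.0 CPM in SLEC on day 14 (WT replicates first), with no overlap. Its log2 difference was 0.99 ± 0.14 (adjusted p = 6.2e-05). *Gnl3* (nucleostemin, a nucleolar GTPase) was at 47.2, 48.1, 48.3 and 43.0 CPM against 25.7, 32.5, 21.4 and 18.4 CPM, also without overlap (0.95 ± 0.14, adjusted p = 0.00014). *Mybbp1a* (a nucleolar protein that binds RNA polymerase I) differed by 0.77, *Ddx21* by 0.66 and *Ncl* by 0.49. *Nolc1* (a snoRNP chaperone) was not called (0.36, adjusted p = 0.089).

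Among the snoRNP proteins, 3 of 7 were called. *Dkc1* (dyskerin, the pseudouridine synthase of box H/ACA snoRNPs) was at 71.5, 69.8, 83.2 and 67.0 CPM in MPEC and at 35.6, 39.6, 35.3 and 26.2 CPM in SLEC on day 14. All MPEC values were above all SLEC values, and the log2 difference was 1.09 (adjusted p = 3.8e-05). Its partner *Nhp2* differed by 0.60 (adjusted p = 0.0068), whereas *Gar1* (0.69, adjusted p = 0.067) and *Nop10* (0.37, adjusted p = 0.38) were not called. *Nop58*, a core protein of box C/D snoRNPs, differed by 0.81 (adjusted p = 0.00098). The other core protein *Nop56* (0.23, adjusted p = 0.29) and the methyltransferase gene *Fbl* (0.52, adjusted p = 0.26) were not called. *Fbl* is uncertain: it shares near-identical sequence with *Gm5812* and a *Tulp4* transcript. The whole genes *Gm5812* and *Tulp4* together had 5662 counts against 1243 for *Fbl*. How many of the 5662 fall in the shared sequence is not known, and how the authors counted shared reads is not given.

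Both RNA polymerase I subunits on the list were called. *Polr1a*, the largest subunit, was at 116, 126, 137 and 141 CPM in MPEC and at 81.4, 74.9, 92.4 and 88.6 CPM in SLEC on day 14. The ranges did not overlap (log2 difference 0.63, adjusted p = 0.00034). *Polr1b*, the catalytic partner subunit, was at 36.0, 37.3, 31.5 and 21.3 CPM in MPEC against 20.8, 19.9, 18.0 and 18.6 CPM (0.69, adjusted p = 0.0079), also without overlap, with KO MPEC replicate 2 nearest to SLEC.

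Of the small subunit assembly factors 7 of 10 were called higher. *Tsr1*, a GTPase-like factor of late small subunit assembly, had the largest difference after *Myc*. It was at 79.1, 61.1, 84.6 and 77.8 CPM in MPEC and at 32.8, 37.2, 33.4 and 26.7 CPM in SLEC on day 14, without overlap (1.21 ± 0.15, adjusted p = 1.4e-05). *Utp20* (0.66), *Heatr1* (0.65), *Wdr43* (0.69), *Ltv1* (0.71), *Rrp9* (0.48) and *Nol6* (0.42), which act in early processing or late assembly of the small subunit, were the other 6. *Bysl* (0.08, adjusted p = 0.78), *Nop14* (0.20) and *Noc4l* (0.46) were not called.

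Of the large subunit factors 5 of 12 were called: *Grwd1* (0.96, a ribosomal protein chaperone), *Nop16* (0.75), *Wdr12* (0.71), *Ddx18* (0.64) and *Noc2l* (0.47). *Wdr12*, *Bop1* and *Pes1* encode the 3 proteins of the PeBoW complex, which is needed to mature the large subunit RNA. Only *Wdr12* of these was called, while *Bop1* was at 0.05 (adjusted p = 0.85) and *Pes1* at 0.23 (adjusted p = 0.33); whether the members of the complex differ from each other was not tested. The difference of *Nop2* (an RNA methyltransferase of the large subunit) was 0.42 with an adjusted p of 0.065.

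**Figure D3:**
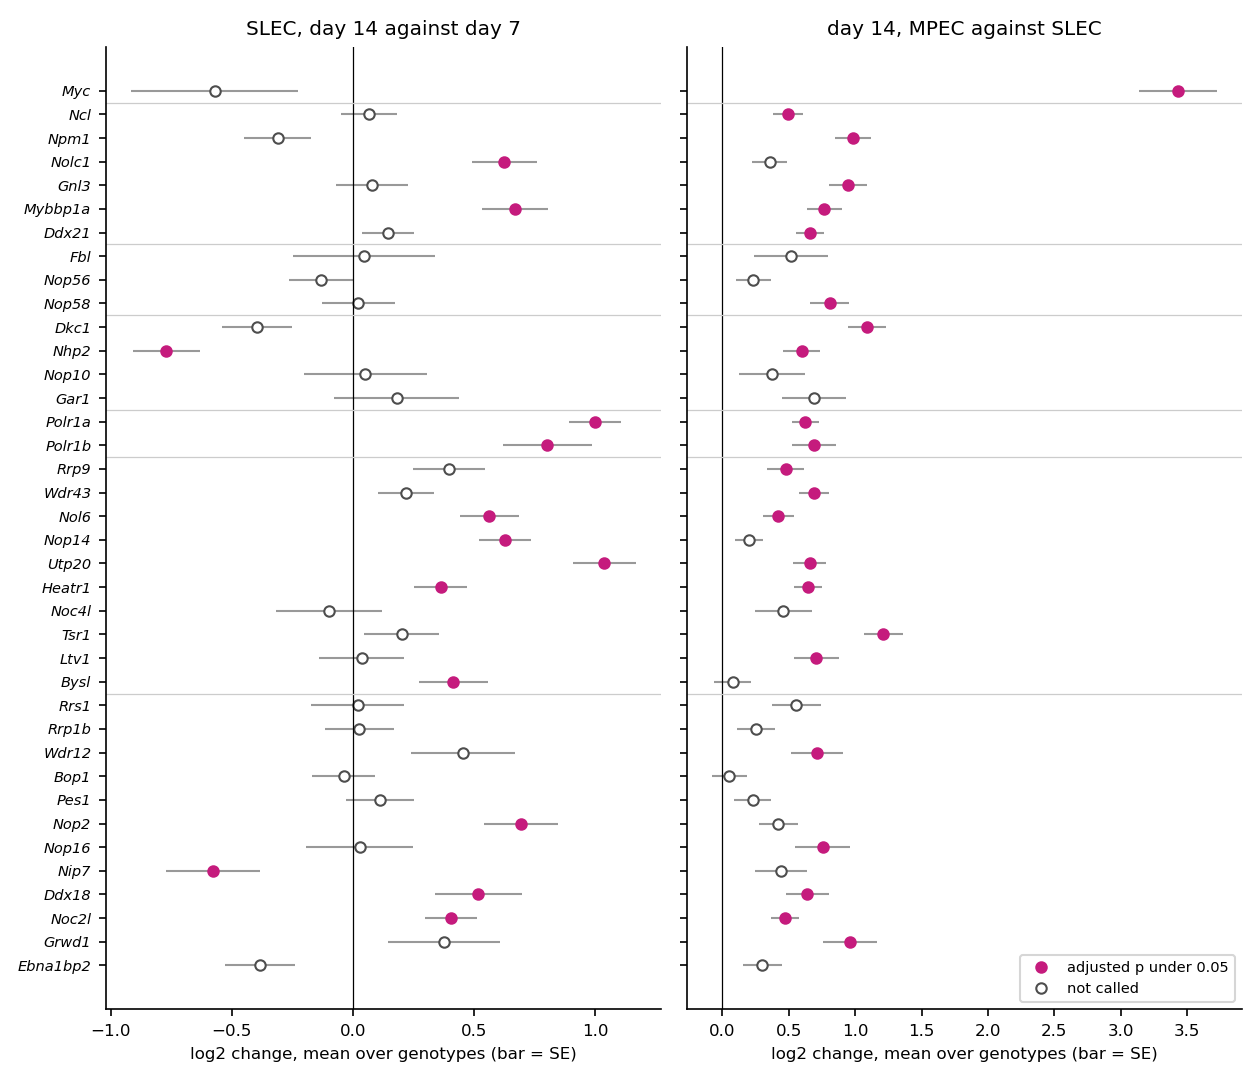
Log2 change of each member (rows, ordered by role as in the heat map) as the mean over genotypes, for SLEC day 14 against day 7 (left) and MPEC against SLEC at day 14 (right; different horizontal scale); bars are SE, filled points have an adjusted p under 0.05. On the right all 38 points lie above 0 and 23 are filled; on the left 12 filled points lie above 0 and 2 below.

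Markers of other cells also differed between MPEC and SLEC. The 11 monocyte and macrophage markers summed to 158 to 208 CPM in MPEC and 581 to 1072 CPM in SLEC, mostly from *Cx3cr1* (73733 counts over the 12 libraries), which effector CD8 T cells express; *Csf1r* had 402 counts and *Adgre1* 122. The 7 plasma cell markers summed to 63.0 to 65.9 CPM in MPEC and 95.8 to 161 CPM in SLEC, mostly from *Prdm1* and *Xbp1*, also T cell genes, and *Sdc1* was at 0 in 9 libraries. The 5 CD4 T cell markers summed to 42.7 to 56.3 CPM in MPEC and 71.2 to 121 CPM in SLEC on day 14, and *Cd4* itself had 55 counts in all 12 libraries. The B cell markers stood at 312 and 137 CPM in WT MPEC and 119 and 128 CPM in KO MPEC. Those of KO SLEC day 14 were at 57.8 and 24.1 CPM, below MPEC, and the WT SLEC day 14 libraries given above were higher than MPEC. Mitochondrial ribosomal RNA took 11.0% to 13.8% of counts in MPEC and 8.0% to 10.2% in SLEC on day 14, without overlap. The part of these markers and of this share in the MPEC result was not tested. Leaving WT SLEC day 14 out altogether (an alternative chosen after seeing the data), 12 members were called in KO. With the B cell sum as a covariate 26 were called in the mean over genotypes, but 5 in WT and 4 in KO. With 1 of the 4 compared libraries left out, the WT count was 2 to 6 and the KO count 4 to 9, below the 13 of the full set in each case.

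In SLEC, day 14 differed from day 7 in a part of the list only, and in both directions. As the mean over genotypes 12 of 38 members rose and 2 fell, where 25.1% of all tested genes were called (11.4% higher, 13.7% lower). The share of members called, 14 of 38, was nearer to the background than for MPEC. The median log2 change was 0.13 against 0.02 over all genes, and 29 of 38 changes were above 0. Every day 14 library was above every day 7 library in 11 of 38 members (11.1% of all genes) and below in 2 (12.6%). In WT 6 rose and 0 fell (9.94% of all genes called, 4.69% higher and 5.25% lower), and in KO 6 rose and 2 fell (17.2% called, 7.7% higher and 9.5% lower). *Polr1a*, *Utp20*, *Nop14* and *Mybbp1a* rose in each genotype. With the B cell sum as a covariate 5 members were called as the mean and 0 in WT. Mitochondrial ribosomal RNA took 12.6% to 19.5% of counts on day 7, above the range on day 14 in every library. The CD4 T cell markers summed to 36.2 to 49.2 CPM on day 7 and the B cell markers to 20.3 to 64.6 CPM. The part of these in the day result was not tested. In WT 3, 3 and 2 were called without SLEC day 7 replicate 1, day 14 replicate 1 and day 14 replicate 2, and in KO 3 and 5 without SLEC day 14 replicates 1 and 2.

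Both polymerase subunits on the list rose between the days. *Polr1a* was at 42.4, 45.2, 38.5 and 43.0 CPM on day 7 (WT replicates first), below all day 14 SLEC libraries given above. Its log2 change was 1.00 ± 0.11 (adjusted p = 3.6e-06). *Polr1b* was at 9.78, 10.7, 13.2 and 10.4 CPM on day 7, also below all day 14 values, and rose by 0.80 (adjusted p = 0.0035). Of the small subunit factors 5 of 10 rose. *Utp20*, a scaffold protein of early small subunit assembly, went from 25.4, 33.6, 31.2 and 33.9 CPM to 69.8, 61.1, 54.9 and 69.1 CPM (1.04 ± 0.13, adjusted p = 1.8e-05), without overlap. *Nop14* (0.63), *Nol6* (0.56), *Bysl* (0.41) and *Heatr1* (0.36) were the others.

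Of the nucleolar factors 2 of 6 rose. *Mybbp1a* went from 56.7, 81.4, 64.6 and 70.1 CPM on day 7 to 102, 122, 104 and 106 CPM on day 14 (0.67, adjusted p = 0.0015), without overlap, and *Nolc1* rose by 0.62. Of the large subunit factors 3 of 12 rose and 1 fell. *Nop2* went from 19.9, 22.0, 17.1 and 23.0 CPM to 38.1, 31.4, 32.3 and 30.4 CPM (0.69, adjusted p = 0.0030), with no overlap. *Ddx18* rose by 0.52 and *Noc2l* by 0.40, and *Nip7* (a factor of large subunit RNA processing) fell by 0.58 (adjusted p = 0.036).

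Of the 7 snoRNP proteins 0 rose and 1 fell between the days. *Nhp2* fell from 37.6, 45.1, 48.3 and 53.8 CPM on day 7 to 30.6, 25.3, 23.5 and 28.7 CPM on day 14. The groups did not overlap, and the log2 change was -0.77 ± 0.14 (adjusted p = 4.8e-04). *Nop56* had 68.3, 76.7, 73.4 and 91.9 CPM in the day 7 libraries, 77.5, 88.3, 69.8 and 49.5 CPM in the day 14 SLEC libraries, and 71.8 to 90.7 CPM in MPEC, overlapping throughout. No box C/D protein was called, with changes of -0.13 to 0.05.

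*Myc* itself did not pass the test between the days. It was at 6.44 and 15.1 CPM in WT and at 16.1 and 13.2 CPM in KO SLEC on day 7, which overlaps with day 14. The log2 change was -0.57 ± 0.34 as the mean (adjusted p = 0.26), 0.28 in WT (adjusted p = 0.76) and -1.42 ± 0.53 in KO (adjusted p = 0.090). The KO change depended on the analysis: DESeq2 gave -1.41 with an adjusted p of 0.0045, the fit of only these groups -1.43 with 0.019, and the fit with neither WT SLEC day 14 library -1.43 with 0.013. Without WT SLEC day 14 replicate 2, the library with the most B cell RNA, the mean change was -1.06 with an adjusted p of 0.012 and the WT change turned to -0.69.

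The day change of the members went with the length of their coding sequence. Over the 38 members the Spearman correlation of coding length and log2 change was 0.65, against 0.28 over 11398 coding genes; it describes genes of the same libraries, which are not independent. The 19 members longer than the median of 1677 bases included 11 of the 12 that rose and had a median change of 0.40. The 19 shorter members included *Bysl* (1308 bases), the remaining riser, and both that fell, *Nhp2* (459 bases) and *Nip7* (540 bases), with a median of 0.03. Over all genes the median was 0.15 above and -0.13 below that length. For MPEC against SLEC on day 14 the correlation was -0.08 over the members and -0.10 over all genes, with 12 longer and 11 shorter members called. The part of length or RNA quality in the day result was not tested.

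A further difference between the days was proliferation. The 16 proliferation genes summed to 1017 to 3388 CPM in SLEC on day 7, 94.0 to 223 CPM in SLEC on day 14 and 96.5 to 148 CPM in MPEC. All 16 fell between the days (median log2 change -4.42) and 0 were called between MPEC and SLEC at day 14 by edgeR. The proliferation sum was lower in both day 14 populations than on day 7, and the members' share of counts was highest in MPEC. The part of proliferation in the member results was not tested.

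**Figure D4:**
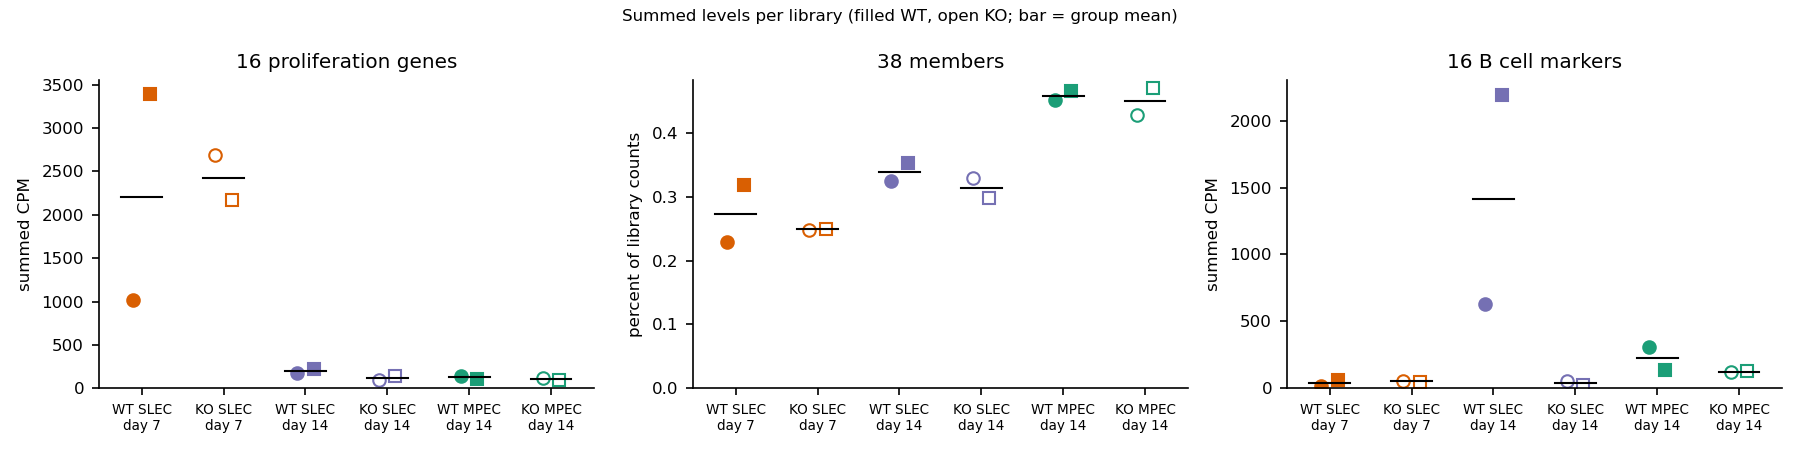
Per library, the summed CPM of 16 proliferation genes (left), the 38 members as percent of all counts (middle) and the summed CPM of 16 B cell markers (right), all axes from 0; circle replicate 1, square replicate 2, filled WT, open KO, bar mean of the 2. Proliferation was high on day 7 (1017 to 3388 CPM), the member share in MPEC (0.428% to 0.471%), and B cell RNA in the WT SLEC day 14 libraries (630 and 2194 CPM).

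MPEC on day 14 and SLEC on day 7, which differ in both day and population, were furthest apart. Here 28 of 38 members were called, all higher in MPEC (34.5% of all genes called, 16.4% higher), with a median log2 difference of 0.83. *Utp20* differed by 1.69, *Polr1a* by 1.62, *Polr1b* by 1.49, *Mybbp1a* by 1.44, *Tsr1* by 1.41 and *Myc* by 2.86 ± 0.27 (7.26-fold, adjusted p = 7.0e-06). All 6 nucleolar factors and 9 of 10 small subunit factors were called, against 3 of 7 snoRNP proteins and 7 of 12 large subunit factors. *Nhp2* (-0.17), *Nip7* (-0.13) and *Ebna1bp2* (-0.08) had values below 0 and were not called. The Spearman correlation of coding length with this difference was 0.51 over the members and 0.18 over all coding genes. The longer members had a median of 0.98 with 15 called, and the shorter members 0.69 with 13 called. The part of length in this comparison was not tested. By mean level 29 members went up from SLEC day 7 over SLEC day 14 to MPEC, 17 of them in WT and in KO alike. Lowest in SLEC on day 14 were 9: *Bop1*, *Dkc1*, *Ebna1bp2*, *Myc*, *Nhp2*, *Nip7*, *Noc4l*, *Nop56* and *Npm1*. The shares of all genes with these orders were not computed, so the counts describe the members only. The day and the MPEC comparison share the SLEC day 14 libraries, so that a low value there lowers the change with day and raises the difference to MPEC.

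The 8 members called in no comparison were *Bop1*, *Ebna1bp2*, *Fbl*, *Noc4l*, *Nop10*, *Nop56*, *Pes1* and *Rrp1b*. *Bop1* ranged from 34.7 to 48.8 CPM over the 12 libraries and *Fbl* from 4.45 to 13.1 CPM.

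Loss of Rroid2 was compared in each population, and 0 of 38 members were called by edgeR in any of them; DESeq2 also called 0. In SLEC on day 7, 0.0277% of all genes were called, the members' median log2 change was 0.00, and 0 had an unadjusted p under 0.05. In SLEC on day 14, 0.539% of all genes were called, the median was -0.10, and 3 members had an unadjusted p under 0.05. In MPEC, 0.0138% were called, the median was 0.07, and 1 did. Over the 3 populations, 0.083% were called, the median was -0.02, and 1 did. Of all 14460 tested genes, 488, 1803, 355 and 1195 had an unadjusted p under 0.05, in the same order. These comparisons had a median SE of 0.20, 0.21, 0.19 and 0.12 log2 per member, so that changes of that size were not detectable. Values several times larger also went uncalled, such as *Gnl3* at -0.54 and *Myc* at -1.24 in SLEC on day 14.

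*Myc* showed the widest spread of the genotype comparisons. Its log2 change between KO and WT was 0.45 ± 0.44 in SLEC on day 7, -1.24 ± 0.52 in SLEC on day 14 (adjusted p = 0.35) and 0.13 ± 0.32 in MPEC. In SLEC on day 14 both KO libraries lay below both WT libraries, narrowly for WT replicate 1 (5.87 against 6.70 CPM). Without the low-count filter this change was called (-1.27, adjusted p = 0.010), as it was without WT SLEC day 14 replicate 1 (-1.80, adjusted p = 0.019). Without WT SLEC day 14 replicate 2 it was -0.28, so that with 1 library left out it ran from -1.80 to -0.28. With the B cell sum as a covariate it turned to 1.28. WT replicate 2, with *Myc* at 19.0 CPM, is the library with 2194 CPM of B cell markers, and the part of B cell RNA in its *Myc* level was not tested. The difference of the KO effect between the days was -1.69 ± 0.68 (adjusted p = 0.73) for *Myc*. Leaving out WT SLEC day 7 replicate 2 gave -2.48, and leaving out WT SLEC day 14 replicate 2 gave -0.74. In this comparison 0 members were called by edgeR (0.00692% of all genes). An unadjusted p under 0.05 was found for 2 members and for 951 of all 14460 genes. Between the populations 0 members were called as well (0.0% of all genes). There 1 member and 612 of all genes had an unadjusted p under 0.05. DESeq2 also called 0 members in both.

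The members with the smallest p in each genotype comparison were not called. *Rrp9* (a U3 snoRNP protein) was at 24.6 and 26.3 CPM in WT and 18.5 and 21.0 CPM in KO SLEC on day 7 (-0.37), and *Wdr12* at 8.19 and 8.68 against 13.3 and 10.6 CPM (0.52). In SLEC on day 14, *Gnl3* had a change of -0.54 (adjusted p = 0.29) and *Nop56* of -0.47 (adjusted p = 0.31). In MPEC, *Polr1b* had -0.48 and *Nol6* 0.31 (adjusted p = 1.00 each). *Rrp9* (-0.25) and *Gnl3* (-0.23) had the smallest p in the mean over populations. In SLEC on day 14 the KO libraries were both higher in 6 members and both lower in 13, as in 21.9% and 25.7% of all genes.

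**Figure D5:**
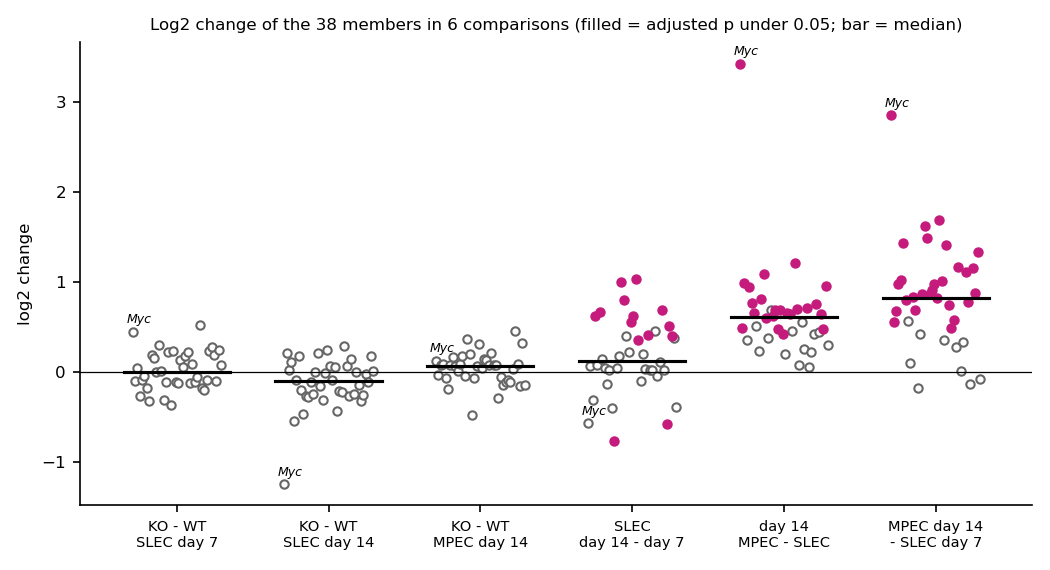
Log2 change of the 38 members (points, spread sideways in the row order of the heat map) in 6 comparisons. Each is labelled as the first group minus the second, with the last 3 as means over genotypes. Filled points have an adjusted p under 0.05 and bars are medians. The 3 genotype comparisons are centred near 0 (medians 0.00, -0.10 and 0.07) with 0 filled points, and the medians for day, MPEC against SLEC on day 14 and MPEC against SLEC on day 7 are 0.13, 0.61 and 0.83.

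Other genes of the pathway were read from lists, against 7.14% of all genes called higher in MPEC, and 11.4% higher and 13.7% lower between the days. Of 13 further RNA polymerase I subunits and factors, 2 were called higher in MPEC than in SLEC on day 14 and 0 lower (median 0.27): *Taf1d*, of the promoter selectivity factor, by 0.71 and *Cd3eap*, a polymerase subunit, by 0.80, while *Ubtf*, the upstream binding factor, had 0.00. Between the days 0 rose and 4 fell, *Taf1d* by 1.77, *Polr1d* by 1.04, *Taf1b* by 0.61 and *Polr1e* by 0.58, unlike *Polr1a* and *Polr1b*. *Polr1d* has 399 and *Taf1d* 966 coding bases, against 5151 for *Polr1a* and 3405 for *Polr1b*. *Ttf1*, the termination factor, had 0.06 (adjusted p = 0.75).

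Of 42 genes listed with small subunit assembly, 11 were called higher in MPEC and 0 lower (median 0.25), among them *Wdr46* (0.74), *Nat10* (0.63), *Rrp12* (0.78) and *Rcl1* (0.83), and *Ddx52* had -0.01. Between the days 6 rose and 3 fell: *Pdcd11* by 0.73 and *Utp25* by 0.57 upwards, and *Emg1* by 0.75 and *Nvl* by 0.69 downwards; *Nvl*, an ATPase, is known for large subunit assembly. Of 43 large subunit genes, 12 were called higher in MPEC and 0 lower (median 0.36). *Mdn1*, the giant ATPase of large subunit assembly with 16767 coding bases, averaged 58.9 CPM in SLEC on day 7, 178 CPM in SLEC on day 14 and 309 CPM in MPEC. It rose by 1.60 with day and was 0.80 higher in MPEC; *Rrp15* (1.22), *Nsa2* (0.87) and *Nifk* (0.77) were also higher there. Between the days 6 of the 43 rose and 7 fell, shares near those of all genes, the latter including *Nsa2* (-0.76) and *Nop53* (-0.62).

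Partners of MYC were listed too, 10 of which were tested. *Mxd4* and *Mxi1*, which compete with MYC for MAX, were lower in MPEC than in SLEC on day 14, with log2 differences of -0.83 ± 0.13 (adjusted p = 0.00016) and -0.85 ± 0.14 (adjusted p = 0.00044), and 0 partners were higher. *Mxd4* averaged 142 CPM in SLEC on day 7, 144.5 CPM in SLEC on day 14 and 80.8 CPM in MPEC. Between the days *Mxd3* (averaging 22.9 and 0.421 CPM) fell by 5.87, *Mga* rose by 0.75 and *Mnt* by 0.52, and *Max* had -0.01. Of 30 other known MYC targets, 9 were called higher in MPEC and 0 lower (median 0.34), including *Srm* (spermidine synthase, 1.44), *Apex1* (1.31), *C1qbp* (0.82) and *Shmt2* (0.70). Between the days 4 rose and 6 fell, with *Ccnd2* (cyclin D2) up by 1.43, *Tfap4* by 1.16, *Pcna* down by 1.52 and *Ldha* by 0.72. Of 16 immediate early genes 1 was called higher in MPEC (*Ier3*, 1.97) and 0 lower, and 2 fell between the days (*Nr4a2* by 1.62 and *Egr1* by 1.16). In the mean KO effect 0 genes of any of these lists were called by edgeR. Of the single populations, SLEC on day 14 had 1, the immediate early gene *Egr3*, lower in KO (log2 change -3.17, edgeR adjusted p = 0.022), and the others had 0. *Egr3* had 5 to 183 counts per library, and 68 of the 78 genes called in this comparison were lower in KO. The WT libraries compared here held the most B cell marker RNA, and its part in this call was not tested.

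Across the 12 libraries, log2 CPM of each of the other 37 members correlated positively with *Myc*, with r from 0.17 to 0.94 and a median of 0.72; *Gnl3*, *Dkc1* and *Tsr1* had the highest r. These values describe libraries that share population, depth and sort, and mainly separate MPEC from SLEC. Among 7819 genes whose log2 CPM averaged at least 3, those most like *Myc* were *Sit1* (0.97), *Faah* (0.97), *Pecam1* (0.97), *Ralgds* (0.97) and *Zc3h12d* (0.96). Those most like the mean of the other 37 members were *Axin2* (0.99), *Hspa9* (0.97), *Slfn5* (0.97), *Rrp15* (0.97) and *Psen2* (0.97). *Pecam1*, for example, averaged 10.3, 12.3 and 71.2 CPM from day 7 SLEC through day 14 SLEC to MPEC, and *Axin2* 22.8, 29.6 and 91.4 CPM.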

How the data were processed

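The authors deposited raw read counts per gene for 12 libraries of sorted mouse OT-I cells. Per the submitters' processing notes they used bcl2fastq and STAR 2.6.1a with GRCm38; per the labels' protocols the libraries were made with a stranded SMART-Seq kit. How reads were counted (program, annotation, strand) was not given in the sources used here. This bears on 18 members that overlap a gene on the opposite strand, on 7 with snoRNA genes inside them, and on 4 with near-identical copies (*Npm1*, *Pes1*, *Ddx18* and *Fbl*; at least 95% identity over 50% of the transcript, BLAST 2.17.0+).

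Identifiers were matched to GENCODE vM21 (55240 of 55421), and 27 symbols turned into numbers were restored. In R 4.3.3 with edgeR 4.0.16, filterByExpr kept 14460 genes (at least 99.7% of the counts of each library), trimmed mean of M-values factors scaled the libraries, and 1 quasi-likelihood fit over the 12 libraries estimated a mean for each group (robust, bias-adjusted deviances; residual degrees of freedom 6, median prior 11.9). A call is a two-sided p under 0.05 after Benjamini-Hochberg adjustment over all tested genes. The fit was tested on simulated data. The members, lists and alternatives were chosen with earlier results of these data known. *Myc* was named throughout, with up to 10 called members of smallest p per comparison (2 where none was called), up to 4 called genes and the gene of largest p per list, and the 5 genes most like *Myc* and most like the other members; members named beyond this complete a role group. Coding lengths are of the longest coding sequence per gene.

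Alternatives were DESeq2 1.42.0 and its size factors, other low-count filters, no robust shrinkage, only the compared groups, a B cell covariate, a replicate block, each library left out, and 2 added after seeing the data: neither WT SLEC day 14 library, and deviances without bias adjustment. Read counts without molecular identifiers are not independent molecules, so the CPM of 3 counts reflects counting error only.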

Additional observations from a re-analysis of the deposited data

How the results depend on the processing

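Depth limited the lowest members most; 3 counts were at most 0.395 CPM. For the number of members called, 258 of 278 values under an alternative were within 1.5 times the value reported. That total includes comparisons where 0 was reported and fits that left out a library outside the comparison. Without the low-count filter, 1 member was called in KO against WT in SLEC on day 14 and 1 when the KO effect was compared between the days (*Myc* each time). With the B cell covariate, 0 were called between the days in WT, 5 between the days as the mean, and 5 in WT and 4 in KO between MPEC and SLEC. With only the compared groups, 2 were called between the days in WT. With 1 library left out, counts were 0 to 1 for KO in SLEC on day 14, 2 to 7 (WT), 3 to 10 (KO) and 10 to 15 (mean) between the days, 2 to 17 (WT), 4 to 15 (KO) and 17 to 26 (mean) between MPEC and SLEC on day 14, and 26 to 30 between MPEC and SLEC on day 7. Below the reported count by over 1.5 times were 3, 3 and 2 between the days in WT (without WT SLEC day 7 replicate 1, day 14 replicate 1 and day 14 replicate 2), and 3 and 5 in KO (without KO SLEC day 14 replicates 1 and 2). Between MPEC and SLEC they were 2, 4, 6 and 2 in WT (without SLEC replicates 1 and 2 and MPEC replicates 1 and 2) and 5, 4 and 5 in KO (without SLEC replicates 1 and 2 and MPEC replicate 2). The medians that changed sign with the B cell covariate were 0.29 (KO, SLEC day 14), 0.11 (KO, mean), -0.10 (day, WT) and 0.33 (KO effect between days). So did *Gnl3* (0.031) and *Nop56* (0.33) for KO in SLEC on day 14, *Nop56* in the differences between days (0.24) and populations (-0.13), and *Myc* for KO in SLEC on day 14 (1.28), KO mean (0.67), day in WT (-2.25) and the differences between days (1.03) and populations (-0.80). With a library left out, *Myc* changed sign for KO in SLEC on day 7 (-0.035; range -0.035 to 1.21), the KO mean (0.026 and 0.10; range -0.41 to 0.10) and day in WT (-0.20 and -0.69; range -0.69 to 1.05); none of these reversed values was called, and the cause was not tested. The labels do not say whether same-numbered libraries belong together, so the main fit had no replicate block. Deviations of same-numbered libraries correlated at -0.16 to 0.21 over 15 pairs of groups, 5 of them over 0.1. Such correlations cannot exclude a shared animal or batch, since each group gives only the difference between its replicates. With the numbers as a block, 0 members were called for KO, 6, 7 and 14 between the days (WT, KO, mean), 15, 13 and 24 between MPEC and SLEC on day 14, and 28 between MPEC and SLEC on day 7.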
